A study of Mus musculus with 48 samples.

Results

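Lgi1, Plce1 and Gm28991 are neighbouring features of mouse chromosome 19, and they are 3 of the 55291 features in each count table. They were chosen by symbol, after Lgi1 had been picked out for its values in MD against R42A cells 45 min after release from mitotic arrest. The differences between these cells below are therefore a description with no test. The data are counts of newly made RNA from mouse embryonic stem cells of strain 129S5/SvEvBrd, labelled with 5-ethynyluridine (EU), a uridine analogue that allows nascent RNA to be captured. The MD cells are Smarce1-MD, in which the BAF (SWI/SNF) chromatin remodeller component SMARCE1 is set up to be degraded in mitosis (clones MD09 and MD30). The R42A cells carry the R42A form of that construct, Smarce1-MD (R42A) (clones A04 and A10), and are taken as the reference. Each genotype is known only from its 2 clones. Cells of both genotypes grew asynchronously, or spent 6 h in nocodazole (100 ng/ml), which arrests cells in mitosis, and were shaken off and collected 0, 45, 90, 180 or 240 min after washout. There were 2 libraries of each clone in each condition, 4 in each of 12 groups and 48 in all.

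LGI1 is a secreted protein with leucine-rich repeats that is made mainly by neurons. It binds the receptors ADAM22 and ADAM23 at synapses, and through them is tied to AMPA receptors and Kv1 potassium channels, and human LGI1 mutations cause a lateral temporal lobe epilepsy. Phospholipase C epsilon, the product of Plce1, cleaves the membrane lipid PIP2 into the second messengers IP3 and diacylglycerol, and unlike its relatives it is controlled directly by RAS and RAP GTPases. In humans, loss of PLCE1 causes a childhood nephrotic syndrome. Gm28991 is a noncoding feature of the antisense class for which no role is given here.

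The coordinates are those of mm10 in GENCODE M21. Lgi1 lies on the plus strand of chromosome 19 from 38264536 to 38312214, with 11354 bases of annotated exon. Plce1 begins 216.6 kb downstream on the same strand and runs from 38481109 to 38785030, with 15998 bases of exon. Gm28991 lies on the minus strand from 38748760 to 38752645, inside Plce1. Its 2 exons, of 289 and 254 bases, fall in introns of Plce1 and share 0 exon bases with it. An unnamed antisense feature, Gm42723 (38300083 to 38315270, minus strand), overlaps the 3′ end of Lgi1 and shares 532 exon bases with it. Whether the counting used strand is not given in the sources used here, so counts of Gm28991 cannot be told apart from intron reads of Plce1, nor those of the shared bases of Lgi1 and Gm42723 from each other. For the same reason, counts under Lgi1 or Plce1 need not be RNA of that gene's own strand.

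The sequence just before the annotated start of Lgi1 is shown because Lgi1 carries the largest difference of the 3. It is the 99 bases at chr19:38264437-38264535, plus strand, from the RefSeq promoter table (GRCm38.p6), 5′ to 3′, with capitals marking matches to the GC box GGGCGG, read on either strand:
Lgi1: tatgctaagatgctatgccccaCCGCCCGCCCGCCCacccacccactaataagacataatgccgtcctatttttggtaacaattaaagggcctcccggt
The run in capitals holds 3 overlapping matches, all on the minus strand. In the 300-base RefSeq window of Lgi1 (250 bases before the RefSeq start and 50 after it) these were the matches found among 8 motifs searched on both strands (TATAAA for the TATA box, CCAAT for the CCAAT box, GGGCGG for the GC box, CACGTG for the E-box, TGANTCA for AP-1, ATGCAAAT for the octamer, CATTGT for SOX factors and GGAATG for TEAD factors). A GGGCGG match was held by 35.7% of the 32851 windows in the table. The Lgi1 window had 54.0% GC and 13 CpG, and 37.9% of windows had as many CpG or more. The Plce1 window lies 43.1 kb into the GENCODE gene, within its exon block 3. It had 41.0% GC and 8 CpG, held by 48.6% of windows or exceeded, and no match to the 8 motifs, the commonest of which, CCAAT, was found in 37.4% of windows.

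Counts assigned to features ranged from 630119 to 3885219 per library. They were low in MD cells at 90 min (630119 to 1518400), against 2653313 to 3149721 in R42A cells, and at 0 min in both genotypes (815733 to 1022255 in MD cells and 762327 to 896670 in R42A cells). Smarce1 itself averaged 22.3 to 30.7 counts per 1000000 (CPM) over the conditions in MD cells and 32.3 to 52.5 CPM in R42A cells, a measure of its RNA and not of the protein that is degraded. Of 10 embryonic stem cell markers, 9 were detected, and their summed level was 448 to 1455 CPM in MD libraries and 819 to 1507 CPM in R42A libraries. Sox2, the remaining one, had 0 counts in all libraries. The sums did not overlap at 90 min (448 to 654 CPM in MD and 890 to 1026 CPM in R42A libraries) or at 240 min (955 to 1066 CPM in MD and 1253 to 1362 CPM in R42A libraries). CPM is the count of a feature per 1000000 counts assigned to features, and a group mean is given ± SD over its 2 clones after the libraries of a clone were summed. Levels and changes, with time as well, are thus relative to the other features of a library. No measure of total RNA output enters them. Fold changes are log2 values ± standard error from edgeR with TMM scaling, and adjusted p-values are from its quasi-likelihood test with Benjamini-Hochberg adjustment over 23874 features at a threshold of 0.05. For MD against R42A these p-values rest on the spread between the 2 clones of each genotype. For changes with time, where the fit holds a clone term, they rest on how far the changes of the clones differ. Both spreads are pooled over the 12 groups and moderated over features. The labels do not say if both libraries of a clone stem from different cultures.

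Lgi1 was the best measured of the 3, with 8144 counts over the 48 libraries, and stood several-fold higher in MD than in R42A cells in every condition. In asynchronous cells it had 309.7 and 522 CPM in MD09 and 424.5 and 409 CPM in MD30, against 22.0 and 23.4 CPM in A04 and 56.1 and 46.7 CPM in A10. The lowest MD library thus stood above the highest R42A library, and the A10 libraries stood above those of A04. The means were 417 ± 0.115 CPM in MD cells and 37.2 ± 20.6 CPM in R42A cells (SD, n = 2 clones each), an 11.2-fold ratio, and the fitted difference was 3.37 ± 0.21 (log2). It was 2.94 without A04 and 4.06 without A10. Of the 23874 features tested, 5.18% were called higher and 8.0% lower in MD in asynchronous cells, and 107 had a larger fold upward than Lgi1.

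**Figure D1:**
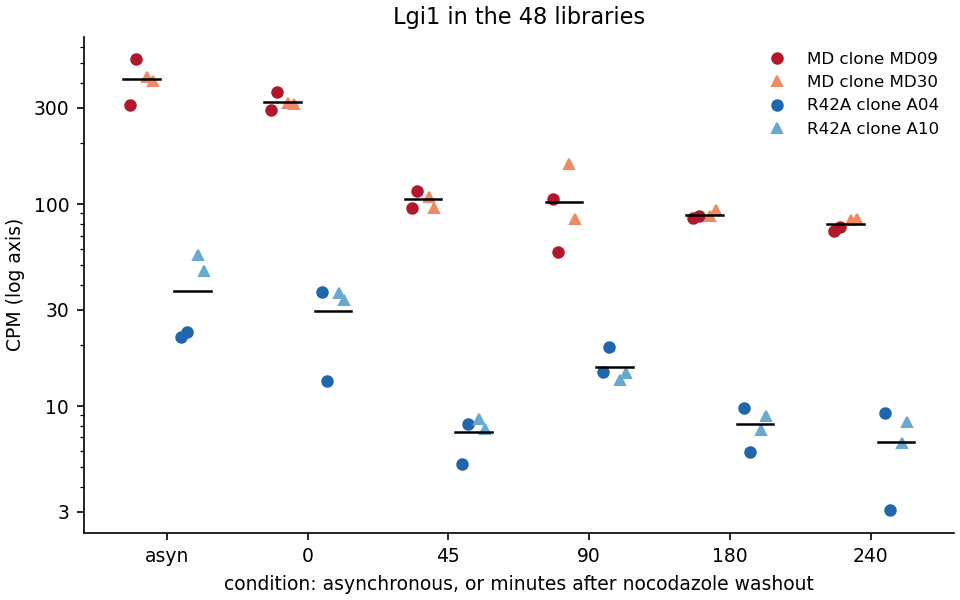
Lgi1 level in CPM (log axis) in each of the 48 libraries by condition, with MD libraries on the left and R42A libraries on the right of each pair, symbols for the clones and bars for the mean of the 2 clones. The MD libraries lie between 57.7 and 522 CPM and the R42A libraries between 3.05 and 56.1 CPM, with no overlap within a condition.

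Cells held in mitosis showed the same separation. At 0 min Lgi1 had 291.5 and 358 CPM in MD09 and 317 and 313 CPM in MD30, against 36.7 and 13.4 CPM in A04 and 36.4 and 33.5 CPM in A10. The fitted difference was 3.38 ± 0.24 (log2), at a time when 3.71% of features were called higher and 2.94% lower. At 45 min, the comparison for which the gene was chosen, MD09 had 95.5 and 116 CPM and MD30 109 and 96.2 CPM, against 5.20 and 8.16 CPM in A04 and 8.61 and 7.73 CPM in A10. All 4 MD libraries were thus more than 10 times the level of any R42A library. The ratio of means was 14.2 and the fitted difference 3.71 ± 0.25 (log2), with 52 features above it, while 10.3% of features were called higher and 7.31% lower.

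The gap was smallest at 90 min, when the MD libraries were the most spread relative to their mean. MD09 had 106 and 57.7 CPM and MD30 159 and 84.9 CPM, from 54 to 161 counts, against 14.7 and 19.7 CPM in A04 and 13.4 and 14.6 CPM in A10. The ratio of means was 6.53 and the fitted difference 2.73 ± 0.23 (log2), in a comparison that called 15.6% of features higher and 22.1% lower and had a median of -0.13 over all features. With DESeq2's size factors in place of TMM that median was -0.00117 and the Lgi1 difference 2.86. At 180 min MD09 had 85.6 and 87.7 CPM and MD30 87.3 and 93.2 CPM, against 9.78 and 5.92 CPM in A04 and 7.58 and 8.94 CPM in A10 (3.35 ± 0.24). Only 12 features had a larger fold upward, with 6.55% called higher and 7.45% lower. At 240 min MD09 had 73.6 and 77.4 CPM and MD30 83.9 and 84.7 CPM, against 9.27 and 3.05 CPM in A04 and 6.60 and 8.39 CPM in A10 (3.57 ± 0.26), with 19 features above it. Of all features 6.13% were then called higher and 4.43% lower. Every MD library stayed above every R42A library at both times, and the MD libraries lay close together.

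In both genotypes Lgi1 held a smaller share of the counts after mitosis than in asynchronous cells, and the time course was tested where no 45 min library was used. In MD cells it fell at 0 min against asynchronous cells (-0.72 ± 0.16, adjusted p = 0.000314 by edgeR), and so it did in R42A cells (-0.69 ± 0.22, adjusted p = 0.00917). Relative to its own asynchronous level, 78.8% remained in MD09 and 75.6% in MD30, against 107% in A04 and 67.6% in A10. The R42A clones did not move alike: without A10 the change was -0.30 (adjusted p = 0.436), and without A04 replicate 2, which stood apart at 13.4 CPM, it was -0.39 (adjusted p = 0.183). Of all features, 42.6% changed in MD and 46.2% in R42A cells between these conditions, in either direction.

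The larger step came between 0 and 45 min, given here without a test since it uses the 45 min libraries. It was -1.59 ± 0.17 in MD cells and -1.92 ± 0.26 in R42A cells (log2). From 45 to 90 min Lgi1 differed by 0.27 ± 0.17 in MD cells and by 1.27 ± 0.24 in R42A cells, so that R42A cells had 15.7 ± 2.40 CPM at 90 min, above their 7.47 ± 1.00 CPM at 45 min. From 90 to 180 min it fell in R42A cells (-1.03 ± 0.23, adjusted p = 0.000313), and 38.0% of features changed there. In MD cells the same step was -0.41 ± 0.17 (adjusted p = 0.0524 by edgeR), which passed the threshold without MD 90 min MD09 replicate 2 (-0.75, adjusted p = 0.00349), without MD 90 min MD30 replicate 2 (-0.72, adjusted p = 0.00255) and without MD 180 min MD30 replicate 2 (-0.45, adjusted p = 0.0364). Of all features 45.3% changed. Whether the steps differed between genotypes was not tested.

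At 240 min Lgi1 was well below its asynchronous level in both genotypes. The fall was -2.60 ± 0.17 in MD cells (adjusted p = 6.87e-17 by edgeR) and -2.75 ± 0.24 in R42A cells (adjusted p = 2.88e-13), with 43.5% and 45.3% of all features changed. MD09 and MD30 had 18.1% and 20.2% of their asynchronous level, against 25.6% in A04 and 14.5% in A10. Between 180 and 240 min the values were -0.15 ± 0.17 in MD cells (adjusted p = 0.892) and -0.38 ± 0.27 in R42A cells (adjusted p = 0.525), and few features changed (0.343% in MD and 4.96% in R42A cells). Ordered by mean, the 6 MD groups took the top 6 places, from 417 CPM in asynchronous cells to 79.9 CPM at 240 min, and the 6 R42A groups followed, from 37.2 to 6.64 CPM. The clones of MD cells at 45, 90 and 180 min overlapped their neighbours in this order, as did those of asynchronous and 0 min R42A cells and those of R42A cells at 180, 45 and 240 min.

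Lgi1 is known as a neuronal gene, so 11 neural markers were read beside it. Sox1 and Tubb3, which define neural progenitors and neurons, had 0 counts in every library, but so had Sox2, a gene of stem cells, so a 0 here need not mean that the RNA was absent. The summed level of the list was higher in MD in asynchronous cells (104 to 111 CPM in MD and 55.8 to 88.3 CPM in R42A libraries), at 0 min (157.5 to 216 CPM in MD and 113 to 138 CPM in R42A libraries) and at 240 min (106 to 136 CPM in MD and 85.3 to 99.7 CPM in R42A libraries), without overlap, and the groups overlapped at the other times. Of the 5 markers that passed the filter, Rbfox3, the gene of the neuronal antigen NeuN, was higher in MD in asynchronous cells (64.0 ± 13.2 against 39.1 ± 9.0 CPM, 0.60 ± 0.18, adjusted p = 0.0258 by edgeR). It was also higher at 45 min (0.59 ± 0.17, adjusted p = 0.0130), 90 min (0.59 ± 0.18, adjusted p = 0.0119) and 180 min (0.56 ± 0.17, adjusted p = 0.0266), and Map2 at 90 min (1.19 ± 0.36, adjusted p = 0.00847). Pax6 was lower at 45 min (28.7 ± 3.61 against 47.7 ± 7.81 CPM, -0.84 ± 0.25, adjusted p = 0.0187), as was Neurod1 at 90 min (-1.06 ± 0.27, adjusted p = 0.00225). Beside them, 13.2% of all features were called in asynchronous cells, 17.6% at 45 min, 37.7% at 90 min and 14.0% at 180 min. Only 5 neural genes were tested, so single calls among them carry little weight. Each of these neural calls was lost in 2 to 6 of 19 or 20 alternative fits, those of Rbfox3 without A04 at 3 of the 4 times (adjusted p = 0.315 in asynchronous cells, 0.135 at 45 min and 0.0758 at 180 min). Of 6 primitive endoderm markers the summed level did not overlap in asynchronous cells (9.84 to 13.8 CPM in MD and 5.19 to 6.52 CPM in R42A libraries), at 45 min (31.7 to 37.7 CPM in MD and 17.3 to 26.0 CPM in R42A libraries) and at 90 min (21.3 to 30.1 CPM in MD and 12.8 to 19.98 CPM in R42A libraries). Of the 4 that passed the filter, 2 were called higher at 45 min, 2 higher and 1 lower at 90 min and 1 higher at 240 min, each lost in at least 1 alternative fit. The shares of all features called at these times were 17.6%, 37.7% and 10.6%, and each call is 1 of only 4 genes. Of 6 fibroblast markers the summed level did not overlap in asynchronous cells (3.94 to 6.73 CPM in MD and 0.815 to 3.12 CPM in R42A libraries). Nor did it at 45 min (10.4 to 12.6 CPM in MD and 1.555 to 10.2 CPM in R42A libraries). At 180 min it was 12.5 to 17.9 CPM in MD and 15.7 to 42.1 CPM in R42A libraries, which overlapped. Only 2 of the 6 passed the filter. Of these, Thy1 was lower in MD at 180 min (-1.53 ± 0.31, adjusted p = 0.000853 by edgeR), when 14.0% of all features were called. Of the 9 embryonic stem cell markers that passed the filter, 0, 3, 3, 1, 2 and 2 were called lower in MD over the 6 conditions in order. At 90 min 2 were higher, and at 180 min 1. The share called was 0%, 33.3%, 33.3%, 33.3%, 33.3% and 22.2%, beside the shares of all features above. Calls of Zfp42 at 0 and 240 min (-0.91 and -0.80), Utf1 at 45 min (-0.81) and Esrrb at 90 min (-1.19) were lost in 0 alternative fits, and every other one in at least 1. Whole chromosomes also differed between MD and R42A cells, as given below, with medians from -0.49 (chromosome 8) to 0.51 (chromosome 11). The marker calls were not set against the chromosome of each gene, and its part in them was not tested. The part of other cell types in the Lgi1 result was not tested, and in such bulk samples fewer cells of a type and less RNA per cell cannot be told apart.

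Plce1 stood at a modest level and was somewhat lower in MD than in R42A cells in most conditions, with libraries that overlapped. It had 2524 counts over the 48 libraries. In asynchronous cells it had 14.2 and 20.2 CPM in MD09 and 23.9 and 15.8 CPM in MD30, against 21.6 and 26.4 CPM in A04 and 31.5 and 25.4 CPM in A10. One MD library stood within the R42A range, and the fitted difference was -0.63 ± 0.20 (log2). Summed with Gm28991, as if both were one transcription unit, it was -0.97.

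At 0 min Plce1 had 57.6 and 32.3 CPM in MD09 and 25.9 and 34.3 CPM in MD30, against 51.2 and 44.6 CPM in A04 and 48.5 and 59.3 CPM in A10 (-0.54 ± 0.21). A single library, MD09 replicate 1, stood among those of R42A, and without it the difference was -0.81. At 45 min MD09 had 37.3 and 22.3 CPM and MD30 32.5 and 29.8 CPM, against 36.4 and 41.99 CPM in A04 and 48.9 and 50.4 CPM in A10 (-0.70 ± 0.18). The highest MD library stood just above the lowest R42A library. At 90 min the groups ran from 14.5 to 42.5 CPM in MD cells and from 22.2 to 29.6 CPM in R42A cells (-0.01 ± 0.21), and the MD libraries covered the whole R42A range. With DESeq2's size factors this value was 0.12, so its direction depends on the scaling. Only at 180 min did the libraries not overlap, with 13.8 to 19.2 CPM in MD cells and 19.8 to 24.3 CPM in R42A cells (-0.44 ± 0.19). At 240 min they were 11.8 to 19.3 CPM in MD cells and 14.6 to 22.4 CPM in R42A cells (-0.35 ± 0.21), and overlapped.

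Unlike Lgi1, Plce1 held a larger share of the counts in mitosis than in asynchronous cells. It rose at 0 min in MD cells (0.64 ± 0.20, adjusted p = 0.00964 by edgeR) and in R42A cells (0.56 ± 0.19, adjusted p = 0.0134), to 36.6 ± 9.73 CPM in MD cells and 50.7 ± 4.31 CPM in R42A cells. The MD value rested on 1 library: without MD09 replicate 1 at 0 min it was 0.37 (adjusted p = 0.171). The R42A value was 0.26 (adjusted p = 0.263) when Gm28991 was summed with Plce1. From 90 to 180 min it fell in MD cells (-0.81 ± 0.21, adjusted p = 0.00175), and in R42A cells the value was -0.37 ± 0.17 (adjusted p = 0.0856). At 240 min it was below the asynchronous level in R42A cells (-0.80 ± 0.19, adjusted p = 0.000428) and in MD cells (-0.54 ± 0.20, adjusted p = 0.0307). The MD call at 240 min was lost in each of 4 fits that left out 1 library, without MD asynchronous MD09 replicate 2 (-0.47, adjusted p = 0.0851) or MD30 replicate 1 (-0.37, adjusted p = 0.179), or MD 240 min MD09 replicate 2 (-0.40, adjusted p = 0.139) or MD30 replicate 1 (-0.46, adjusted p = 0.0862). Between 180 and 240 min the change was -0.21 ± 0.20 in MD cells (adjusted p = 0.865) and -0.30 ± 0.18 in R42A cells (adjusted p = 0.437).

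**Figure D2:**
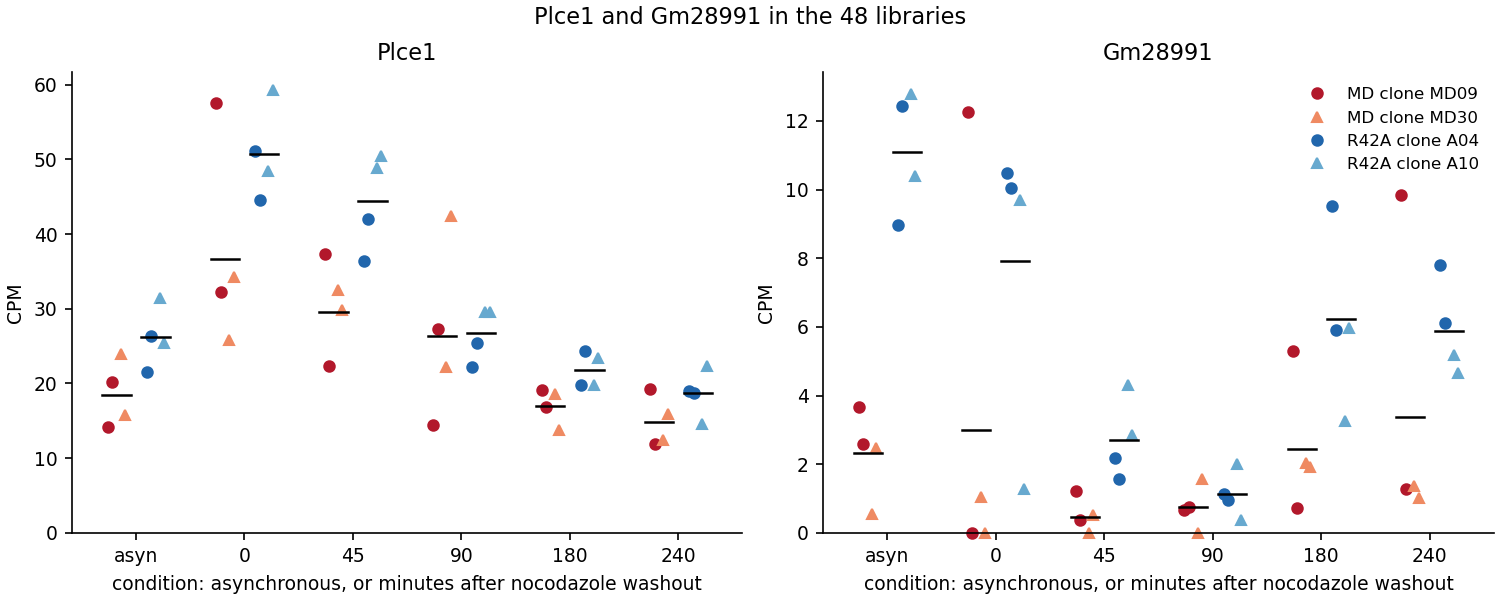
Plce1 (left) and Gm28991 (right) in CPM in each of the 48 libraries by condition, with MD libraries on the left and R42A libraries on the right of each pair and bars for the mean of the 2 clones. Plce1 is highest at 0 and 45 min in R42A cells, and Gm28991 shows single MD09 libraries at 12.2 CPM (0 min) and 9.85 CPM (240 min) among MD libraries near 1 CPM.

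Gm28991 was the weakest feature, with 388 counts in all, and was mostly lower in MD cells. In asynchronous cells it had 7 and 5 counts in MD09 and 1 and 5 in MD30, against 22 and 25 counts in A04 and 28 and 20 in A10. The libraries did not overlap, and the means were 2.34 ± 1.11 CPM in MD cells and 11.1 ± 0.803 CPM in R42A cells (-2.36 ± 0.50, log2). At 45 min there were 2, 1, 0 and 1 counts in the 4 MD libraries and 5, 4, 11 and 7 in the 4 R42A libraries, again without overlap in CPM (0.452 ± 0.321 CPM in MD cells and 2.72 ± 1.23 CPM in R42A cells, -2.61 ± 0.82). At 90 min it was near the floor in both genotypes, with 3 counts in all MD libraries and 13 in all R42A libraries, a ratio of 0.648 (95% exact interval 0.118 to 2.36, counting error only). At 180 min it ran from 0.734 to 5.30 CPM in MD cells and from 3.25 to 9.52 CPM in R42A cells, and the groups overlapped (-1.45 ± 0.48).

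In MD cells 1 library of clone MD09 carried much of the Gm28991 signal at several times. At 0 min MD09 replicate 1 had 10 counts (12.2 CPM), while the other MD libraries had 0, 1 and 0. At 240 min it had 23 counts (9.85 CPM), against 2 to 3 in the other MD libraries, and at 180 min 13 counts against 2 in replicate 2. Over the 6 conditions MD09 replicate 1 libraries held 56 counts (5.25 CPM), against 12 in MD09 replicate 2 (0.988 CPM), 10 in MD30 replicate 1 (0.945 CPM) and 14 in MD30 replicate 2 (1.40 CPM). The MD against R42A difference at 0 min was -1.46 ± 0.68 with that library. Without it MD cells held 1 count against 26, a ratio of 0.0447 (95% exact interval 0.00109 to 0.272, counting error only). At 240 min the difference was -0.78 ± 0.49 with MD09 replicate 1 and -2.26 without it. The same libraries stood at MD levels for Lgi1 (292, 85.6 and 73.6 CPM at 0, 180 and 240 min), as they did for Mras (14.7, 17.9 and 18.0 CPM, against at least 48.5 CPM in every R42A library of those times). For Rapgef3 they were also below every R42A library (2.45, 1.22 and 1.71 CPM). Cyp2c53-ps was below them at 180 and 240 min (3.67 and 3.42 CPM). At 0 min its 2.45 CPM lay within the R42A range of 1.29 to 7.27 CPM, and so did the 57.6 CPM of Plce1 within its own (44.6 to 59.3 CPM). Why these libraries differed was not tested.

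Over time, Gm28991 in R42A cells was low at 45 and 90 min and higher again at 180 min. It rose from 90 to 180 min in R42A cells (2.37 ± 0.42, adjusted p = 1.17e-05 by edgeR), to 6.22 ± 2.31 CPM at 180 min, against 1.13 ± 0.136 CPM at 90 min. The MD value for this step was 1.53 ± 0.80 (adjusted p = 0.116), from 3 counts at 90 min, and it passed the threshold without MD 180 min MD09 replicate 2 (2.13, adjusted p = 0.0215). In R42A cells it was lower at 240 min than in asynchronous cells (-1.24 ± 0.31, adjusted p = 0.000832), and MD cells gave 0.30 ± 0.47 (adjusted p = 0.644). From asynchronous cells to 0 min it fell in R42A cells (-0.87 ± 0.36, adjusted p = 0.0437), a call lost without any of 5 single libraries, as without A10 replicate 2 at 0 min (-0.48, adjusted p = 0.304). In MD cells that step was 0.00 ± 0.64 (adjusted p = 0.999), and without MD 0 min MD09 replicate 1 it was -2.81 (adjusted p = 0.0352), with 1 count left at 0 min. Between 180 and 240 min it was 0.42 ± 0.44 in MD cells (adjusted p = 0.885) and -0.17 ± 0.32 in R42A cells (adjusted p = 0.858).

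**Figure D3:**
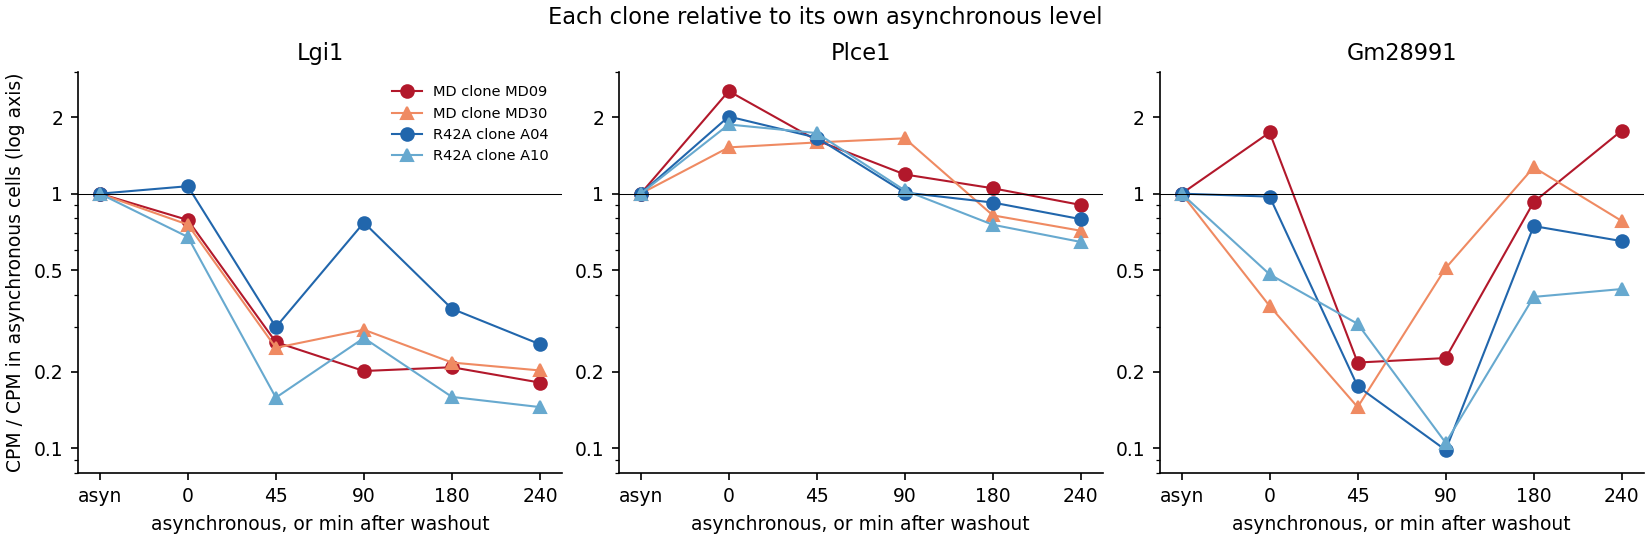
Level of Lgi1, Plce1 and Gm28991 in each clone as a ratio to that clone's own asynchronous level (log axis), by condition, with 1 line for each of the 4 clones. Lgi1 ends at 0.145 to 0.256 of the asynchronous level in all 4 clones, Plce1 peaks at 0 min at 1.87 to 2.53 in 3 of them and at 90 min at 1.65 in MD30, and the R42A clones of Gm28991 drop to 0.0983 and 0.105 at 90 min.

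The 3 features did not share a time course. Lgi1 was highest in asynchronous cells of both genotypes, Plce1 at 0 min in both, and Gm28991 in asynchronous R42A cells. Across the 24 sums of clone and condition, Lgi1 and Plce1 had a Pearson correlation of log2 CPM of -0.18, and 0.36 within MD and 0.46 within R42A sums. Plce1 and Gm28991 had 0.13, and -0.30 within MD and -0.05 within R42A sums. These points share clones and conditions and are a description. Per kb of annotated exon, Gm28991 was above Plce1, the gene around it, in asynchronous cells (4.30 ± 2.05 against 1.15 ± 0.108 CPM per kb in MD cells, 20.4 ± 1.48 against 1.64 ± 0.218 CPM per kb in R42A cells). At 90 min both were close (1.38 ± 0.110 for Gm28991 and 1.65 ± 0.527 CPM per kb for Plce1 in MD cells, 2.08 ± 0.250 and 1.67 ± 0.250 CPM per kb in R42A cells). Lgi1 had 36.7 ± 0.0101 CPM per kb in asynchronous MD cells and 3.27 ± 1.81 CPM per kb in R42A cells.

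The genes next to Lgi1 were then read to see whether the difference extended along the chromosome. Within 1 Mb of the span of the 3 features GENCODE lists 48 other features, of which 36 were in the tables and 23 passed the filter on low counts. In asynchronous cells 1 of the 23 was called higher and 1 lower in MD, and the median was -0.04. At 0 min edgeR called 0, with 3 at an unadjusted p under 0.05 and 0 called by DESeq2. At 45 min 1 was higher (median 0.14), at 180 min 1 was lower (median -0.09) and at 240 min 1 was lower (median -0.03). At 90 min, when many features were called, 3 were higher and 5 lower (median 0.18). The neighbours were thus called no more often than other features: 8.7% of them against 13.2% of all features in asynchronous cells, 0% against 6.65% at 0 min, 4.35% against 17.6% at 45 min, 34.8% against 37.7% at 90 min, 4.35% against 14.0% at 180 min and 4.35% against 10.6% at 240 min.

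**Figure D4:**
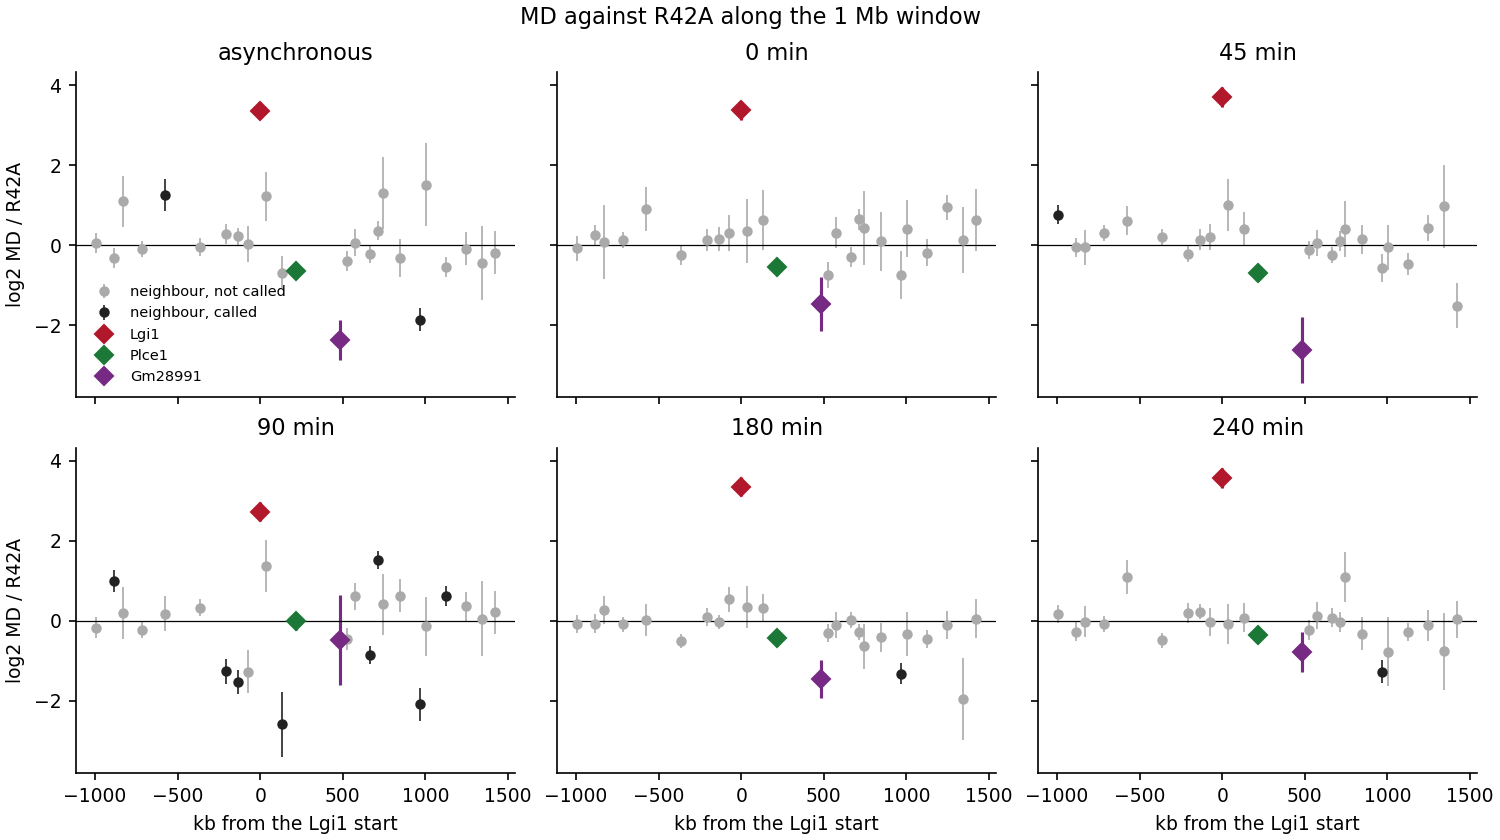
Fitted log2 difference of MD over R42A (bars, standard error) for the 3 features (diamonds) and the 23 neighbours that passed the filter (circles, black where called) by distance of the feature's annotated left end from the start of Lgi1 in kb, in the 6 conditions. Lgi1 lies at 2.73 to 3.71 in each panel, above every neighbour.

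On the upstream side of Lgi1, its nearest protein-coding neighbour Fra10ac1, which ends 40380 bases before it, had 5.42 ± 1.26 CPM in MD cells and 4.34 ± 0.918 CPM in R42A cells at 45 min, and it was not called at any time. Pde6c, the next one, encodes the catalytic subunit of the cone photoreceptor phosphodiesterase. It had 9.37 ± 0.193 CPM in MD cells and 7.89 ± 0.723 CPM in R42A cells at 45 min, and was lower in MD at 90 min (6.5 ± 4.21 against 17.1 ± 2.29 CPM, -1.53 ± 0.31, adjusted p = 0.000203 by edgeR). Between Lgi1 and Plce1 lies Slc35g1, which encodes a membrane protein of the solute carrier family. At 90 min it had 2 counts in MD and 39 in R42A cells, a ratio of 0.144 (95% exact interval 0.0168 to 0.556, counting error only; adjusted p = 0.0118, and 0.0715 without MD 90 min MD09 replicate 2). In asynchronous cells it had 3.24 ± 0.165 CPM in MD cells and 4.74 ± 1.21 CPM in R42A cells. The antisense feature over the 3′ end of Lgi1, Gm42723, had 2.72 ± 0.199 CPM in MD cells and 1.05 ± 0.105 CPM in R42A asynchronous cells, from 21 and 9 counts, and was not called at any time.

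Downstream of Plce1, Noc3l, which encodes a nucleolar protein of ribosome assembly, had 9.99 ± 0.973 CPM in MD cells and 12 ± 0.463 CPM in R42A asynchronous cells. Tbc1d12, of the TBC domain family, was the strongest of the adjoining genes, with 88.6 ± 10.2 CPM in MD cells and 77.6 ± 12.9 CPM in R42A asynchronous cells. Neither was called at any time, although Tbc1d12 at 90 min (114 ± 56.7 CPM in MD cells and 87.0 ± 0.835 CPM in R42A cells, 0.61, adjusted p = 0.164) passed the threshold without MD 90 min MD30 replicate 2 (0.77, adjusted p = 0.0375). Fra10ac1 at 90 min (1.5 ± 0.12 CPM in MD cells and 3.90 ± 1.31 CPM in R42A cells, -1.27, adjusted p = 0.058) did so without R42A 90 min A10 replicate 2 (-1.42, adjusted p = 0.0329), and Gm42723 at 90 min (1.37, adjusted p = 0.099) without MD 90 min MD09 replicate 1 (1.85, adjusted p = 0.0371).

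Farther out, Cyp2c53-ps, a transcribed pseudogene of the Cyp2c cytochrome P450 cluster 964.7 kb from the Lgi1 start, was the neighbour called most often. It was lower in MD in asynchronous cells (4.92 ± 2.17 against 16.5 ± 0.696 CPM, -1.86 ± 0.29, adjusted p = 2.57e-05 by edgeR), at 90 min (-2.09 ± 0.41, adjusted p = 0.000148), at 180 min (-1.32 ± 0.27, adjusted p = 0.00104) and at 240 min (-1.27 ± 0.29, adjusted p = 0.00343). The call at 240 min was lost without A10 (-0.93, adjusted p = 0.13) or MD09 (-1.18, adjusted p = 0.057). It belongs to a family of near-identical genes, and how shared reads were counted is not given, so its counts are uncertain. Its cluster neighbours Cyp2c52-ps and Cyp2c38 were higher at 90 min (1.52 ± 0.23, adjusted p = 4.24e-06, and 0.62 ± 0.25, adjusted p = 0.0466). The call of Cyp2c38 was lost without any of 5 single libraries, with values of 0.48 to 0.68.

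The other calls were of single times. Cyp26c1, which encodes an enzyme that breaks down retinoic acid, was higher in asynchronous MD cells (6.74 ± 1.80 against 2.58 ± 0.478 CPM, 1.26 ± 0.41, adjusted p = 0.0337 by edgeR), and lost the call without any of 4 single libraries (0.95 to 1.26). At 240 min it was not called, but passed without R42A 240 min A04 replicate 1 (1.51, adjusted p = 0.0371) or MD 240 min MD09 replicate 2 (1.35, adjusted p = 0.032). Ide, the insulin-degrading enzyme gene, was higher at 45 min (17.2 ± 2.93 against 9.31 ± 1.32 CPM, 0.77 ± 0.23, adjusted p = 0.0187), and lost the call without R42A 45 min A04 replicate 2 (0.67, adjusted p = 0.0563) or MD 45 min MD09 replicate 2 (0.55, adjusted p = 0.144). At 90 min Kif11, a mitotic spindle motor gene, was higher (1.00 ± 0.27, adjusted p = 0.00391), with 10.9 CPM in MD09 and 34.0 CPM in MD30, against 10.5 CPM in A04 and 9.81 CPM in A10. MD30 alone stood above the R42A clones, and the call was lost without it (0.52, adjusted p = 0.241). Cep55, needed for the final cut of cell division, was lower (-1.26 ± 0.31, adjusted p = 0.00153, and -0.77 with adjusted p = 0.0816 without MD 90 min MD09 replicate 1), as was the chromatin remodeller gene Hells (-0.86 ± 0.23, adjusted p = 0.00357, and -0.63 with adjusted p = 0.153 without MD09). The MD libraries of 90 min were shallower than those of R42A, as given above. The 2 libraries of an MD clone also differed most at 90 min. Across features their chi-square per degree of freedom was 21.1 for MD09 and 7.15 for MD30, against 1.07 to 4.4 for every other pair. As such libraries were summed before the fit, this spread does not enter the p-values directly. The part of depth and of this spread in the 90 min calls, here and in the lists below, was not tested.

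Chromosome 19 as a whole differed little between the genotypes. Its 657 tested features had a median MD over R42A difference of -0.21 to 0.05 over the 6 conditions. Of the 20 other groups of features (the other chromosomes, and features without a GENCODE match), chromosome 8 was lowest with medians of -0.49 to -0.37 and chromosome 11 highest with 0.29 to 0.51. Changes with time were also read along the window. From asynchronous cells to 0 min 5 of the 23 neighbours rose and 2 fell in MD cells, and 4 rose and 3 fell in R42A cells. That was 30.4% of them in each genotype, beside 42.6% of all features in MD and 46.2% in R42A cells. From 180 to 240 min edgeR called 0 in MD cells (1 at an unadjusted p under 0.05, and 0 called by DESeq2) and 1 in R42A cells. These were 0% and 4.35% of the 23, beside 0.343% and 4.96% of all features.

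The partners of LGI1 were measured to place Lgi1 among genes of its pathway. Of 13 genes besides Lgi1 (the other LGI genes, their ADAM receptors, Kv1 channel and AMPA receptor partners, and the Nogo receptor), 9 passed the filter. In asynchronous cells 1 was higher and 1 lower in MD, at 45 min 2 were higher, at 90 min 2 were higher and 2 lower, at 180 min 1 was higher and 2 lower, and at 240 min 2 were higher and 1 lower. At 0 min 1 was lower. Their median was 0.21 to 0.58 over the conditions, beside -0.13 to 0.01 over all features tested. The share called was 22.2% of the 9 in asynchronous cells, 11.1% at 0 min, 22.2% at 45 min, 44.4% at 90 min, 33.3% at 180 min and 33.3% at 240 min, beside the shares of all features given for the neighbours, and each call is 1 of only 9 genes.

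Kcnab1, which encodes a beta subunit of Kv1 channels, was lower in MD in asynchronous cells (593 ± 14.3 against 1080 ± 10.1 CPM, -0.99 ± 0.15, adjusted p = 1.99e-05 by edgeR). It was also lower at 180 min (-0.79 ± 0.15, adjusted p = 0.000395), at 240 min (-0.61 ± 0.15, adjusted p = 0.00672, and 0.128 without A10 or 0.0535 without MD09) and at 90 min (-0.74 ± 0.15, adjusted p = 0.000243), the last lost without MD 90 min MD09 replicate 2 (-0.35, adjusted p = 0.171). Adam23, which encodes an LGI1 receptor, was lower at 0 min (76.5 ± 2.10 against 119 ± 12.1 CPM, -0.71 ± 0.17, adjusted p = 0.00567, and 0.0512 to 0.112 in the 3 fits without A10, MD09 or MD30) and at 90 min (-0.76 ± 0.17, adjusted p = 0.000538). Its call at 180 min (-0.51 ± 0.15, adjusted p = 0.0199) was lost without any of 3 single libraries (-0.41 to -0.39).

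Cacng2 encodes stargazin, an auxiliary subunit that brings AMPA receptors to synapses. It was higher in MD at 45 min (385 ± 10.1 against 196 ± 7.83 CPM, 0.86 ± 0.15, adjusted p = 0.000123 by edgeR). At 90 min it was higher as well (1.05 ± 0.15, adjusted p = 2e-06), though not called without MD 90 min MD09 replicate 1 (0.45, adjusted p = 0.0833), and the call at 180 min (0.45 ± 0.15, adjusted p = 0.0396) was lost without any of 4 single libraries (0.31 to 0.41). Rtn4r, the Nogo receptor gene, was low and higher in MD at 45 min (4.97 ± 0.302 against 1.71 ± 0.682 CPM, 1.41 ± 0.41, adjusted p = 0.0154), at 90 min (1.5 ± 0.56, adjusted p = 0.0323) and at 240 min (10.2 ± 0.0273 against 4.72 ± 0.619 CPM, 1.09 ± 0.32, adjusted p = 0.0223). Each of its calls was lost in at least 2 of the fits that left out 1 library, with values of 0.79 to 1.40.

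The phospholipase C family was read beside Plce1. Of its 14 other genes 13 passed the filter. In asynchronous cells 2 were higher in MD, at 0 min 1 was higher, at 45 min 2 were higher and 1 lower, at 90 min 4 were higher and 5 lower, at 180 min 2 were higher and 2 lower, and at 240 min 1 was higher. Medians were -0.17 to 0.12 over the conditions, the lowest at 90 min, where it was also -0.17 with Plcb2, at 0 counts in MD cells, set at its bound. The share called was 15.4%, 7.69%, 23.1%, 69.2%, 30.8% and 7.69% of the 13 over the 6 conditions in order, beside 13.2%, 6.65%, 17.6%, 37.7%, 14.0% and 10.6% of all features. Plcg1, the phospholipase activated by receptor tyrosine kinases, was higher in MD in asynchronous cells (57.7 ± 2.80 against 33.1 ± 4.71 CPM, 0.68 ± 0.17, adjusted p = 0.00519 by edgeR) and at 240 min (0.57 ± 0.16, adjusted p = 0.0145), and lower at 90 min (52.3 ± 17.6 against 112 ± 0.543 CPM, -1.10 ± 0.17, adjusted p = 4.45e-06). Its calls at 45 min (0.57 ± 0.18, adjusted p = 0.0218) and 180 min (0.50 ± 0.16, adjusted p = 0.0267) were each lost without any of 3 single libraries (0.41 to 0.50). Those in asynchronous cells and at 240 min were lost without single clones, the first without A04 (0.59, adjusted p = 0.0577) or MD30 (0.65, adjusted p = 0.0809) and the other without A04, MD09 or MD30 (0.53 to 0.59, adjusted p = 0.0701 to 0.148).

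Plcl2, a catalytically inactive relative, was higher in MD at 90 min (153 ± 23.3 against 37.0 ± 0.0625 CPM, 2.09 ± 0.18, adjusted p = 2.6e-10 by edgeR) and at 180 min (0.70 ± 0.18, adjusted p = 0.00731, lost without A10 or MD09). Plch2, of the neuronal eta class, was higher at 45 min (33.7 ± 2.67 against 18.7 ± 2.79 CPM, 0.73 ± 0.19, adjusted p = 0.00615, lost without A10, MD09 or MD30) and 90 min (1.03 ± 0.21, adjusted p = 0.00022). At 0 min it was 0.94 ± 0.28 (adjusted p = 0.0383), a call lost without any of 4 single libraries (0.59 to 1.03). Plcb1, which is controlled by Gq proteins, was lower at 180 min (24 ± 2.81 against 40.6 ± 2.50 CPM, -0.85 ± 0.20, adjusted p = 0.00349, lost without MD09 at -0.76 with adjusted p = 0.102).

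The 16 genes listed as regulators of phospholipase C epsilon, among them RAS and RAP genes, exchange factors and scaffolds, all passed the filter. In asynchronous cells 1 was higher and 2 lower in MD, at 0 min 2 were lower, at 45 min 3 were higher and 2 lower, at 90 min 2 were higher and 3 lower, at 180 min 1 was higher and 2 lower, and at 240 min 2 were lower. Medians were -0.17 to 0.15, and the share called was 18.8%, 12.5%, 31.2%, 31.2%, 18.8% and 12.5% of the 16 over the 6 conditions in order, beside the shares of all features given for the phospholipases. Mras, a RAS relative counted among the lower genes in all 6 conditions, was known to differ when the list was made, so its values are a description. The counts and shares of this list include Mras and would be smaller without it. They are therefore no evidence that the list was called more often than other features. Mras had 15.7 ± 5.41 CPM in MD cells and 79.6 ± 8.70 CPM in R42A asynchronous cells (-2.47 ± 0.31). Rapgef3 encodes EPAC1, an exchange factor by which cyclic AMP activates RAP1. It was lower in MD in asynchronous cells (1.43 ± 0.542 against 4.79 ± 0.441 CPM, -1.85 ± 0.46, adjusted p = 0.00585 by edgeR, and 0.142 without MD09), at 90 min (-2.97 ± 0.45, adjusted p = 3.03e-06), at 180 min (3.22 ± 0.458 against 13.7 ± 3.65 CPM, -2.16 ± 0.30, adjusted p = 5e-06) and at 240 min (-2.02 ± 0.33, adjusted p = 7.59e-05). Its calls at 0 min (-1.75 ± 0.49, adjusted p = 0.0225) and 45 min (-1.36 ± 0.35, adjusted p = 0.00522) were lost without R42A A10 replicate 2 of the same time (-1.34, adjusted p = 0.149, and -1.03, adjusted p = 0.0572), and the one at 0 min also without MD30 replicate 1 (-1.44, adjusted p = 0.0887). Iqgap1, a scaffold gene, was higher in asynchronous MD cells (52.9 ± 10.6 against 26.0 ± 0.0131 CPM, 0.90 ± 0.21, adjusted p = 0.00256) and at 45 min (1.00 ± 0.19, adjusted p = 0.000267), both lost without MD09 (0.71, adjusted p = 0.0837, and 0.65, adjusted p = 0.065). Akap6, an anchoring protein gene known to hold phospholipase C epsilon at the nuclear envelope of heart cells, was higher at 90 min (17.8 ± 1.74 against 6.77 ± 1.40 CPM, 1.54 ± 0.28, adjusted p = 6.1e-05, and 1.00 with adjusted p = 0.106 without MD09).

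Outside the window, the features most like each of the 3 were ranked by Pearson correlation of log2 CPM over the 24 sums, which share clones and conditions. For Lgi1 they were Usp26 (0.949), Adap2os (0.921), Rab11fip4os1 (0.917), Supt6 (0.908) and Skap1 (0.906). Usp26 lies on chromosome X and had 16.2 CPM in MD cells and 1.52 CPM in R42A asynchronous cells, and the other 4 lie on chromosome 11. That chromosome had medians of 0.29 to 0.51 for MD over R42A, as given above. The part of this shift in their likeness to Lgi1, itself higher in MD, was not tested. For Plce1 they were Pura (0.915), Tead4 (0.904), Zfp827 (0.898), Dctn6 (0.894) and Zfp462 (0.889). Tead4 had 62.9 CPM at 0 min and 22.7 CPM in asynchronous MD cells, and 89.8 and 30.9 CPM in R42A cells. For Gm28991 they were Nxpe2 (0.865), Pde3a (0.834), Spry2 (0.826), Xkr5 (0.817) and Arhgap26 (0.814). Nxpe2 had 1.14 CPM in MD cells and 1.3 CPM in R42A cells at 90 min, against 5.65 CPM in MD cells and 19.1 CPM in R42A cells at 180 min.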

How the data were processed

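EU-labelled nascent RNA was captured with a Click-iT Nascent RNA Capture Kit and sequenced after KAPA Hyper Prep library construction, per the labels' protocols. The deposited tables hold raw read counts per feature. The submitters' processing notes name Trim Galore 0.60, STAR 2.7.1a, RSEM 1.3.0 and mm10, and the strand setting is not given in the sources used here. The tables hold whole numbers with counter entries, and which tool made the counts, and how it treated shared reads, is not given either. Each table has 55291 features and 5 counter entries, which were left out of totals (90.2 to 94.0% of counts in a library were of no feature).

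The 2 libraries of a clone and condition were summed (24 sums). EdgeR 4.0.16 (limma 3.58.1, R 4.3.3) fitted them with TMM scaling and its robust quasi-likelihood test after filterByExpr (minimum count 10, total 15), once by genotype and condition and once by condition with a clone term, with Benjamini-Hochberg adjustment over 23874 features. Scripts were tested on simulated data. DESeq2 1.42.0, other scalings, filters and omissions were alternatives. Replicate numbers showed no pairing between MD and R42A clones: over 24 pairs of such clones, deviations correlated at -0.079 to 0.07. Pairing between clones of the same genotype was not examined. Named genes were the 3 members, the nearest protein-coding genes, every called neighbour, up to 4 genes per list by adjusted p and 5 features per member by likeness. The members and lists were chosen with earlier results of these data known. Intervals cover counting error only.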

Additional observations from a re-analysis of the deposited data

Results flagged for a closer look

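Of 36 combinations of the 3 features and 12 groups of 4 libraries, 4 held a library far from the other 3 by Dixon's criterion, which chance alone meets in about 1 in 20 groups. Gm28991 in MD cells at 0 min had 12.2 CPM in MD09 replicate 1, against 0 to 1.03 CPM in the other MD libraries. At 240 min MD09 replicate 1 had 9.85 CPM of Gm28991, against 1.03 to 1.38 CPM in the others. In R42A cells at 0 min, A10 replicate 2 had 1.29 CPM of Gm28991, from 1 count, against 9.69 to 10.5 CPM in the others. Lgi1 in R42A cells at 0 min was 13.4 CPM in A04 replicate 2, against 33.5 to 36.7 CPM in the others.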

How the results depend on the processing

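Lgi1 was higher in MD in every condition under all alternatives run (2.43 to 4.06, log2). It was 2.94 without clone A04 and 4.06 without A10 in asynchronous cells. Plce1 was lower in all of them except at 90 min (-0.07 to 0.16). For MD over R42A, omitting clone MD09 gave -0.83 and MD30 -0.30 for Plce1 at 0 min, and without MD09 Gm28991 was -3.81 at 0 min and -2.28 at 240 min. Leaving out single libraries gave -0.81 to -0.38 for Plce1 at 0 min, and for Gm28991 -4.45 to -0.90 at 0 min and -2.26 to -0.37 at 240 min. Plce1 summed with Gm28991 gave -0.97 in asynchronous cells. Causes were not tested.

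Of the time changes, Lgi1 in MD cells from 90 to 180 min passed the threshold without A04 (-0.51) or A10 (-0.40), with libraries singly (-0.54), with DESeq2 size factors (-0.51), DESeq2 (-0.50) and no filter (-0.43), with single omissions giving -0.75 to -0.10. Lgi1 in R42A cells from asynchronous to 0 min lost it without A10 (-0.30), singly (-0.48) and with DESeq2 (-0.55), with -0.94 to -0.39 for single omissions. Plce1 in MD cells at 0 min lost it without MD09 (0.23), with 0.37 to 0.81 for single omissions. Plce1 in MD cells from 0 to 45 min reversed to 0.07 without MD09 and was -0.68 without MD30 (-0.44 to -0.02 for single omissions). Plce1 in MD cells at 240 min lost its call without A04 (-0.44), MD09 (-0.74) or MD30 (-0.33), singly (-0.42), with size factors (-0.46), DESeq2 (-0.46), no filter (-0.45), no 90 min libraries (-0.44) and summed with Gm28991 (-0.41), and single omissions gave -0.71 to -0.37. Plce1 in R42A cells at 0 min lost it without A04 (0.65), A10 (0.61) and summed (0.26).

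Gm28991 in MD cells at 0 min gave -2.81 to 0.79 over single omissions, its step to 45 min -3.40 to 0.20 (reversed at 0.20 without MD 0 min MD09 replicate 1, and -1.20 without clone MD09) and its step from 90 to 180 min 1.02 to 2.13. In R42A cells at 0 min it lost its call without A04 (-1.31), A10 (-0.43) or MD30 (-0.78), singly (-0.67), with size factors (-0.73), DESeq2 (-0.74), no filter (-0.74), no 90 min libraries (-0.67) and no clone term (-0.87), with -1.07 to -0.48 for single omissions, and at 240 min without A10 (-1.02).

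The replicate block rests on numbers that showed no pairing between MD and R42A clones and were not examined within a genotype. It gave -0.53 for Lgi1 in MD cells from 90 to 180 min, -0.48 for Lgi1 in R42A cells at 0 min, -0.42 for Plce1 in MD cells at 240 min and -0.67 for Gm28991 in R42A cells at 0 min, and neighbour counts of 1 at 0 min, 2 at 180 min and 2 at 240 min. Neighbours called in asynchronous cells numbered 1 without A04, A10 or MD30, with DESeq2 and within 0.5 Mb. At 0 min they numbered 1 singly, with size factors, without the 90 min libraries and with only the 4 sums. At 45 min they numbered 0 without A04, A10 or MD09, with DESeq2 and within 0.5 Mb, 2 without MD30 and with size factors, and 3 with no filter and within 2 Mb. At 90 min they numbered 4 without MD09 and 15 within 2 Mb. At 180 min they numbered 2 singly and within 2 Mb. At 240 min they numbered 0 without A10 and 2 singly, with only the 4 sums and within 2 Mb. Single omissions gave 1 to 2, 0 to 1, 0 to 2, 6 to 9, 1 to 2 and 1 to 3 over the 6 conditions in order. Gm28991 rests on 388 counts in all, which limits its precision.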
